A study of Homo sapiens with 8 samples.

Results

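The 10 genes described here encode proteins that bind the mRNA cap or act on it at the start of translation, and they were chosen by name from 60240 genes listed for each library. They are the nuclear cap-binding genes NCBP1 and NCBP2, the cytoplasmic cap-binding genes EIF4E, EIF4E2 and EIF4E3, the eIF4E-binding protein genes EIF4EBP1, EIF4EBP2 and EIF4EBP3, the helicase gene EIF4A1 and the scaffold gene EIF4G1. All 10 had a mean normalised value above the minimum of 10 and were among the 17534 genes tested. The cells were the promyelocytic leukaemia line HL-60, of human origin and labelled wild type, grown for 72 h in 4 groups of 2 libraries. The control group received the solvent DMSO. The decitabine group received the DNA methyltransferase inhibitor decitabine at 100 nM on each day from day 0 to day 2. The RG3039 group received RG3039, an inhibitor of the scavenger decapping enzyme DcpS, at 2 µM on day 0. The combination group received both drugs at these doses. All groups come from 1 cell line, and the labels say only that cells were seeded in duplicate, so p-values measure the spread between these wells.

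The cap is a methylated guanosine joined to the first nucleotide of an mRNA. In the nucleus it is held by a heterodimer of NCBP2, which contacts the cap, and NCBP1, which makes that contact stable and recruits processing and export factors. In the cytoplasm eIF4E takes the cap and, with the scaffold eIF4G and the helicase eIF4A, forms the eIF4F complex that brings the small ribosomal subunit to the mRNA. The eIF4E-binding proteins (4E-BPs) occupy the surface of eIF4E that eIF4G uses and so block the complex, and phosphorylation by the kinase complex mTORC1 releases them. DcpS acts on the short capped remnants left when an mRNA has been degraded from its other end.

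The 4E-BPs and eIF4G compete through a short motif, searched here in the form they share: tyrosine, aspartate, arginine, any residue, phenylalanine and leucine. It is shown here because it is what joins 4 of the 10 genes and sets them against each other. In coding sequences of GENCODE 29 this form was present in 9 of 19519 genes, among them EIF4EBP1, EIF4EBP2, EIF4EBP3 and EIF4G1. Only this form was searched, so the count is not that of all genes whose proteins bind eIF4E. The stretches below are read 5′ to 3′ on the coding strand, with the 18 bases that encode the motif in capitals and 21 bases on each side in lower case.
EIF4EBP2: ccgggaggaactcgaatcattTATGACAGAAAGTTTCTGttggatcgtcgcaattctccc
EIF4EBP3: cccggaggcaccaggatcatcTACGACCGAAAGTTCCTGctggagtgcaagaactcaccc
EIF4G1: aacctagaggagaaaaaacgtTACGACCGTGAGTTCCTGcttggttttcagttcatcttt
Of the 18 motif bases, EIF4EBP1 shared 14 with EIF4EBP2, EIF4EBP3 shared 15 and EIF4G1 shared 13. The motif spans codons 54 to 59 of 120 in EIF4EBP2, 54 to 59 of 118 in EIF4EBP1, 40 to 45 of 100 in EIF4EBP3 and 619 to 624 of 1606 in the EIF4G1 transcript used. The 3 4E-BPs are thus small proteins with the motif in the middle, and EIF4G1 carries it in a far longer chain.

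The estimated depth was 20711800 to 40948100 reads per library. Values are normalised read counts from tags near the 3′ end of transcripts, and each is given for replicate 1 and then replicate 2. No length correction was made here, as for tags counted once per transcript. In genes with 5 or more transcripts, such as EIF4G1 with 38, most low values were not whole reads. Such values may not be plain tag counts, so levels of different genes may not be directly comparable. Fold changes are log2 differences of group means of log2(value + 1), given with their standard error from limma, and a gene was called when its Benjamini-Hochberg adjusted p over all 17534 genes was below 0.05. In these bulk samples, fewer cells of a type and less RNA per cell cannot be told apart. The 10 genes of a list of HL-60 myeloid markers were all detected, and their summed level was 184665 to 222553 under DMSO, 183024 to 226841 under decitabine, 126290 to 144248 under RG3039 and 109707 to 123574 under the combination. MPO, the granule peroxidase, was 60.4% to 74.4% of that sum, and the other markers did not all follow it. With the combination against DMSO MPO, CTSG, PRTN3 and CEBPA were called lower, and CEBPE and MYB higher. CEBPE had 2368 and 2700 under DMSO and 6514 and 7476 under the combination. MYB was not called without either DMSO, either RG3039 or either combination library, and PRTN3 not without combination replicate 1. Of 20 markers of other cell types 17 were above 0, and MS4A1, COL3A1 and HBB were at 0 in every library. The summed level of these 20 genes was 1106 to 1548 under DMSO, 1711 to 2002 under decitabine, 2581 to 2628 under RG3039 and 5118 to 5131 under the combination, which was 0.0179% to 0.0184% of the signal. PECAM1, found on endothelial and some blood cells, was 33.0% to 71.3% of this sum, with 608 and 582 under DMSO and 3085 and 3460 under the combination, and KRT8 and KRT18 held much of the rest. The part of either marker shift in the results below was not tested.

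The RNAs of EIF4EBP1 and EIF4EBP2, both inhibitors of eIF4E, were lower after the combination than with DMSO, and EIF4EBP2 was also lower after RG3039 alone. No other gene of the 10 was called in any comparison. EIF4EBP2 stood at 56.6% of its DMSO mean after the combination and at 62.2% after RG3039, and EIF4EBP1 stood at 52.7% after the combination. The third family member, EIF4EBP3, stood at 71.6% after the combination and was not called.

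EIF4EBP2 (ENSG00000148730.7, hg38 chromosome 10, 70404379 to 70428618, plus strand) had normalised values of 2738 and 3013 under DMSO and 2794 and 2753 under decitabine. The values were 2044 and 1532 under RG3039 and 1633 and 1624 under the combination. The 4 libraries without RG3039 lay above the 4 libraries with it, with no overlap. The log2 fold change against DMSO was -0.70 ± 0.17 for RG3039 (limma adjusted p = 0.0326, 95% interval -1.07 to -0.33) and -0.82 ± 0.17 for the combination (adjusted p = 0.00684, 95% interval -1.19 to -0.45). Decitabine alone gave -0.05 ± 0.17 (adjusted p = 0.909). Against decitabine the combination gave -0.77 ± 0.17 (adjusted p = 0.0243) and RG3039 gave -0.65 ± 0.17 (adjusted p = 0.0596, not called). The combination differed from RG3039 by -0.12 ± 0.17, with a 95% interval from -0.49 to 0.25.

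These calls did not rest on the libraries to the same degree. The fall of EIF4EBP2 with the combination against DMSO was called without each of the 8 libraries in turn, with adjusted p from 0.00587 to 0.0457. Its fall with RG3039 was called only without RG3039 replicate 1. It was lost without DMSO replicate 1 (adjusted p = 0.0604) or 2 (0.143), decitabine replicate 1 (0.0502) or 2 (0.0511), RG3039 replicate 2 (0.206) and combination replicate 1 (0.0613) or 2 (0.0619). The difference between the combination and decitabine was lost without decitabine replicate 1 (adjusted p = 0.113) or 2 (0.0888) and combination replicate 1 (0.132) or 2 (0.129).

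The 250 bases before the RefSeq start of EIF4EBP2 (GRCh38.p14, chr10:70403895-70404144, plus strand) are printed because this gene had most of the calls. The capitals mark GC boxes, searched as GGGCGG on both strands, which are the binding letters of Sp1-type factors.
EIF4EBP2 promoter: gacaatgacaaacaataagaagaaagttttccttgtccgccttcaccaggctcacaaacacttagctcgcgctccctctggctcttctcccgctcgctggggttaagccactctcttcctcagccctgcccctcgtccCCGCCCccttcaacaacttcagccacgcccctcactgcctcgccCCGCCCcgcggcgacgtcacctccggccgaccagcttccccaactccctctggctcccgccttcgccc
There are 2 GC boxes in it, both on the minus strand, and 45.0% of 35116 promoter windows of 300 bases hold at least 1. The window of 300 bases for this gene holds 26 CG dinucleotides, against a median of 14 over all windows. No methylation was measured, so these are features of the reference sequence alone.

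**Figure D1:**
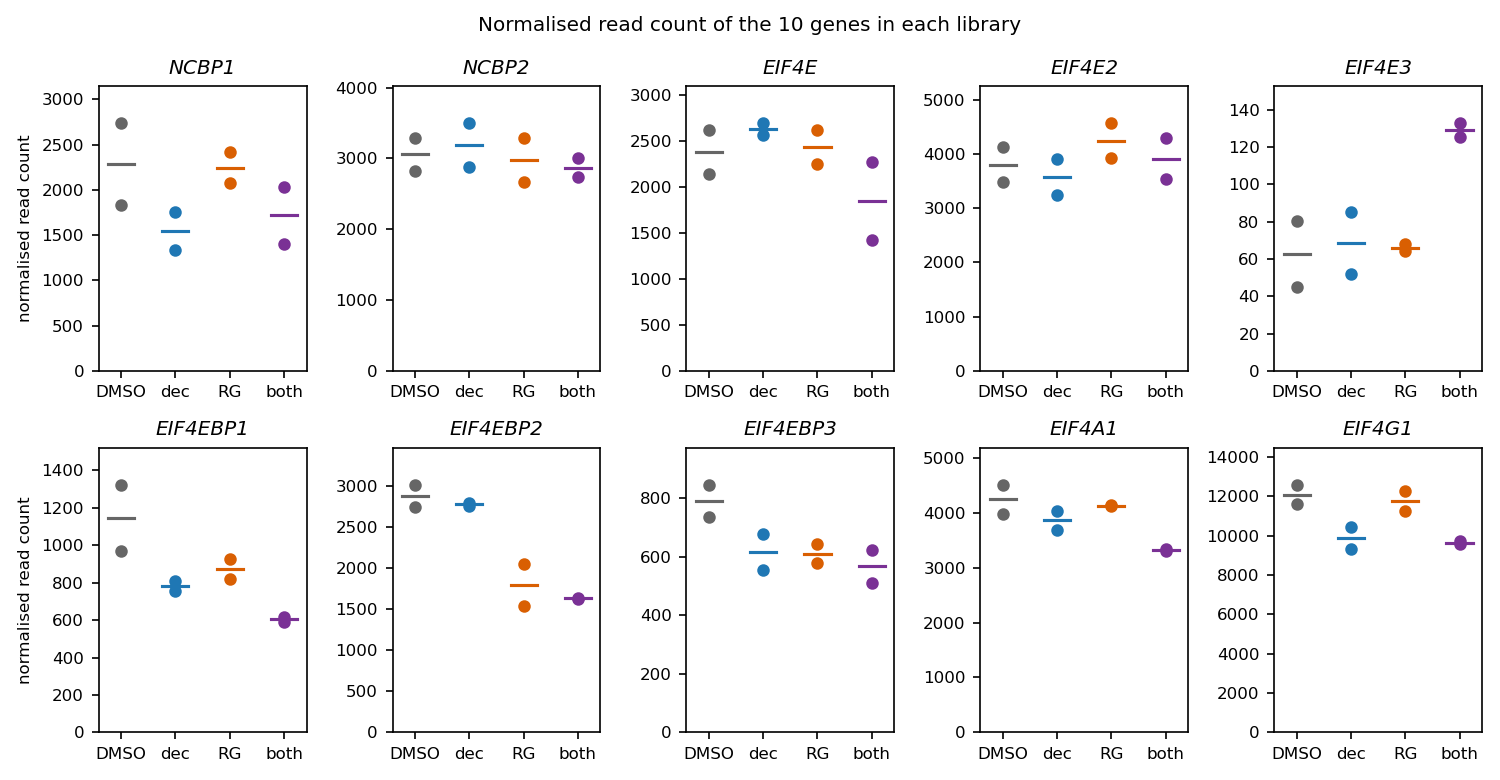
Normalised value (y axis, linear, from 0) of each of the 10 genes in each of the 8 libraries, 1 panel a gene, with points for libraries and bars for the mean of the 2 libraries of a group. EIF4EBP2 is low in the 4 libraries with RG3039, EIF4EBP1 is lowest in the 2 combination libraries, and the 4 groups of NCBP2 overlap.

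EIF4EBP1 (ENSG00000187840.5, chromosome 8, 38030341 to 38060365, plus strand) had normalised values of 968 and 1323 under DMSO, 754 and 806 under decitabine, 820 and 927 under RG3039 and 619 and 590 under the combination. No groups overlapped, and the order from high to low was DMSO, RG3039, decitabine, combination. The combination against DMSO gave a log2 fold change of -0.90 ± 0.19 (limma adjusted p = 0.00875, 95% interval -1.34 to -0.47). The single drugs gave -0.54 ± 0.19 for decitabine (adjusted p = 0.189) and -0.38 ± 0.19 for RG3039 (adjusted p = 0.285), and neither was called. The call for the combination was lost without DMSO replicate 2 (adjusted p = 0.0562) and without combination replicate 2 (adjusted p = 0.0557).

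The patterns of EIF4EBP1 and EIF4EBP2 differed in the decitabine libraries. There EIF4EBP1 had a mean of 780.2 ± 37.1 (SD, n = 2), below every DMSO library, and EIF4EBP2 had 2773 ± 28.9 (SD, n = 2), inside its DMSO range of 2738 to 3013. The difference between the 2 genes was not tested.

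EIF4EBP3 (ENSG00000243056.2, chromosome 5, 140547666 to 140549578, plus strand) had normalised values of 736 and 845 under DMSO, 554 and 677 under decitabine, 576 and 644 under RG3039 and 511 and 622 under the combination. The 6 treated libraries lay below the 2 DMSO libraries and overlapped one another. Against DMSO the difference on the log2 scale was -0.48 ± 0.20 for the combination (adjusted p = 0.110), -0.37 ± 0.20 for decitabine (adjusted p = 0.370) and -0.37 ± 0.20 for RG3039 (adjusted p = 0.301). A read-through gene on the same strand, ANKHD1-EIF4EBP3, had values of 263 to 364, and SRA1 on the opposite strand had 550 to 1007. No source used here says whether the counting kept strands apart, so reads of EIF4EBP3 and SRA1 may not be separable. Strand cannot separate EIF4EBP3 from ANKHD1-EIF4EBP3 where they overlap, and how their shared reads were divided is not known. The same holds for the part of EIF4EBP3 in the sum below.

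Summed over the 3 4E-BP genes, the normalised value as a percentage of the DMSO mean was 92.3 and 108 under DMSO, 85.2 and 88.0 under decitabine, 71.5 and 64.5 under RG3039 and 57.4 and 58.9 under the combination. The 4 groups did not overlap in this sum, which fell in the order DMSO, decitabine, RG3039, combination and to which EIF4EBP2 gave the largest share. The ratio of the sum to EIF4E, as a percentage of its DMSO mean, was 102 and 97.7 under DMSO, 75.2 and 81.8 under decitabine, 75.7 and 58.4 under RG3039 and 96.2 and 61.7 under the combination. The ratio in the combination libraries spread widely, because EIF4E itself was low in replicate 1 of that group. These are RNA levels, and neither the amount nor the phosphorylation of the proteins was measured.

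**Figure D2:**
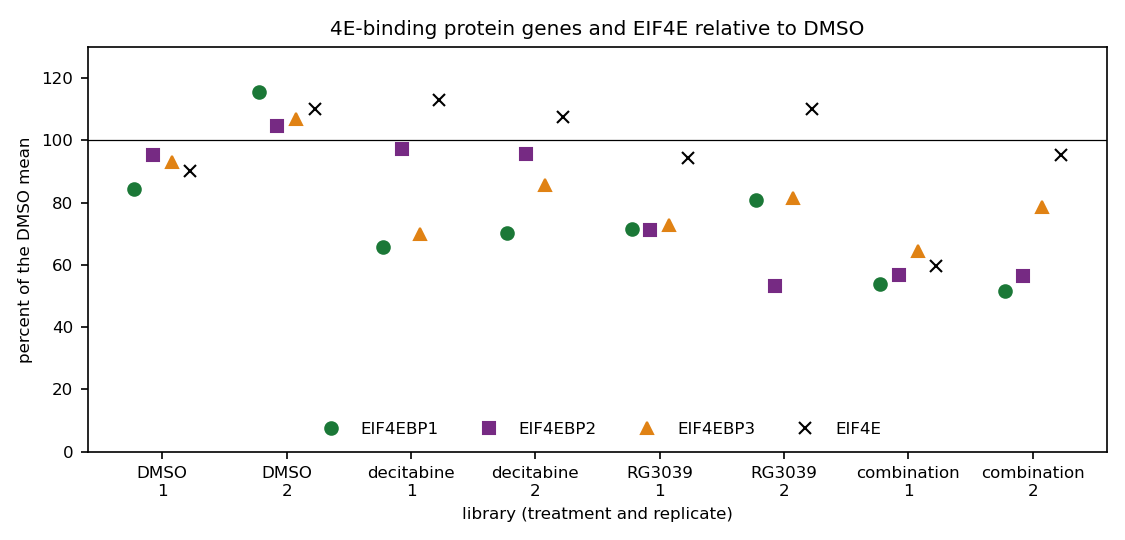
Normalised values of the 3 4E-BP genes and of EIF4E as a percentage of the gene's DMSO mean (y axis), with 1 point per library and the 4 treatments along the x axis. EIF4EBP2 lies below its DMSO libraries in the RG3039 and combination groups only, EIF4EBP1 lies below them in all 3 treated groups, and EIF4E is spread in the combination.

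EIF4E (ENSG00000151247.12, chromosome 4, 98871684 to 98930637, minus strand), the protein that takes the cap for translation, was not called in any comparison. Its normalised values were 2143 and 2616 under DMSO, 2689 and 2556 under decitabine, 2242 and 2620 under RG3039 and 1416 and 2268 under the combination. Replicate 1 of the combination was the lowest library, and replicate 2 lay inside the DMSO range. The log2 fold change of the combination was -0.40 ± 0.22 against DMSO (adjusted p = 0.227) and -0.55 ± 0.22 against decitabine (adjusted p = 0.173).

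EIF4E2 (ENSG00000135930.14, chromosome 2, 232550052 to 232583644, plus strand) encodes 4EHP, a cap-binding protein that does not engage eIF4G and acts in translational repression. Its normalised values were 3483 and 4121 under DMSO, 3235 and 3915 under decitabine, 3930 and 4569 under RG3039 and 3531 and 4289 under the combination. Groups next to each other in level overlapped, while both RG3039 libraries lay above both decitabine libraries. TIGD1, which overlaps EIF4E2 on the opposite strand, had values of 169 to 457, and reads of EIF4E2 and TIGD1 may not be separable. For EIF4E2 the combination against DMSO gave 0.04 ± 0.17 (limma adjusted p = 0.900), and the 95% interval from -0.34 to 0.42 bounds the change.

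EIF4E3 (ENSG00000163412.13, chromosome 3, 71675416 to 71754773, minus strand), a family member with an atypical cap pocket, was the least abundant of the 10 by normalised value. It had 44.8 and 80.1 under DMSO, 85.2 and 52.0 under decitabine, 68.2 and 64.0 under RG3039 and 126 and 133 under the combination. Both combination libraries lay above the other 6, and the mean was 207% of the DMSO mean. On the log2 scale the combination differed from DMSO by 1.09 ± 0.41 (limma adjusted p = 0.0842, 95% interval 0.17 to 2.02), so the gene was not called. The DMSO pair itself had an SD of 25.0 around a mean of 62.4. GPR27, which overlaps EIF4E3 on the opposite strand, had higher values, of 425 to 845. They were 657 and 620 under DMSO and 658 and 627 under the combination. Whether the counting kept strands apart is not known, so reads of EIF4E3 and GPR27 may not be separable.

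EIF4A1 (ENSG00000161960.15, chromosome 17, 7572706 to 7579005, plus strand), the helicase that unwinds the mRNA leader, had normalised values of 3983 and 4509 under DMSO, 3686 and 4029 under decitabine, 4136 and 4114 under RG3039 and 3309 and 3337 under the combination. The combination libraries lay below the other 6. The log2 fold change against DMSO was -0.35 ± 0.13 (limma adjusted p = 0.0871), which was not called. AC016876.2, a transcript on the same strand that overlaps EIF4A1, had 2437 and 2069 under DMSO and 2126 and 1981 under decitabine. It had 2331 and 1799 under RG3039 and 1443 and 1266 under the combination, so it too was lowest there. How reads shared by EIF4A1 and AC016876.2 were divided is not known.

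EIF4G1 (ENSG00000114867.21, chromosome 3, 184314495 to 184335358, plus strand), the scaffold that carries the motif shown above, had the highest normalised values of the 10. They were 11587 and 12593 under DMSO, 9316 and 10466 under decitabine, 11256 and 12270 under RG3039 and 9559 and 9726 under the combination. The 4 libraries with decitabine lay below the 4 without it. The log2 fold change against DMSO was -0.29 ± 0.13 for decitabine (limma adjusted p = 0.274) and -0.33 ± 0.13 for the combination (adjusted p = 0.0969), and neither was called.

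NCBP1 (ENSG00000136937.13, chromosome 9, 97633626 to 97673748, plus strand), the large subunit of the nuclear cap-binding complex, was not called in any comparison. Its normalised values were 1832 and 2738 under DMSO, 1332 and 1758 under decitabine, 2071 and 2419 under RG3039 and 1406 and 2032 under the combination. Both decitabine libraries lay below both DMSO libraries, and the combination overlapped both. On the log2 scale the difference from DMSO was -0.55 ± 0.25 for decitabine (adjusted p = 0.286) and -0.41 ± 0.25 for the combination (adjusted p = 0.279).

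NCBP2 (ENSG00000114503.11, chromosome 3, 196935402 to 196942597, minus strand), the subunit that contacts the cap, had the steadiest group means. Its normalised values were 2830 and 3294 under DMSO, 2874 and 3498 under decitabine, 2663 and 3293 under RG3039 and 2731 and 3007 under the combination. Every neighbouring pair of groups overlapped. The combination against DMSO gave -0.09 ± 0.17 (limma adjusted p = 0.746), with a 95% interval from -0.47 to 0.29.

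**Figure D3:**
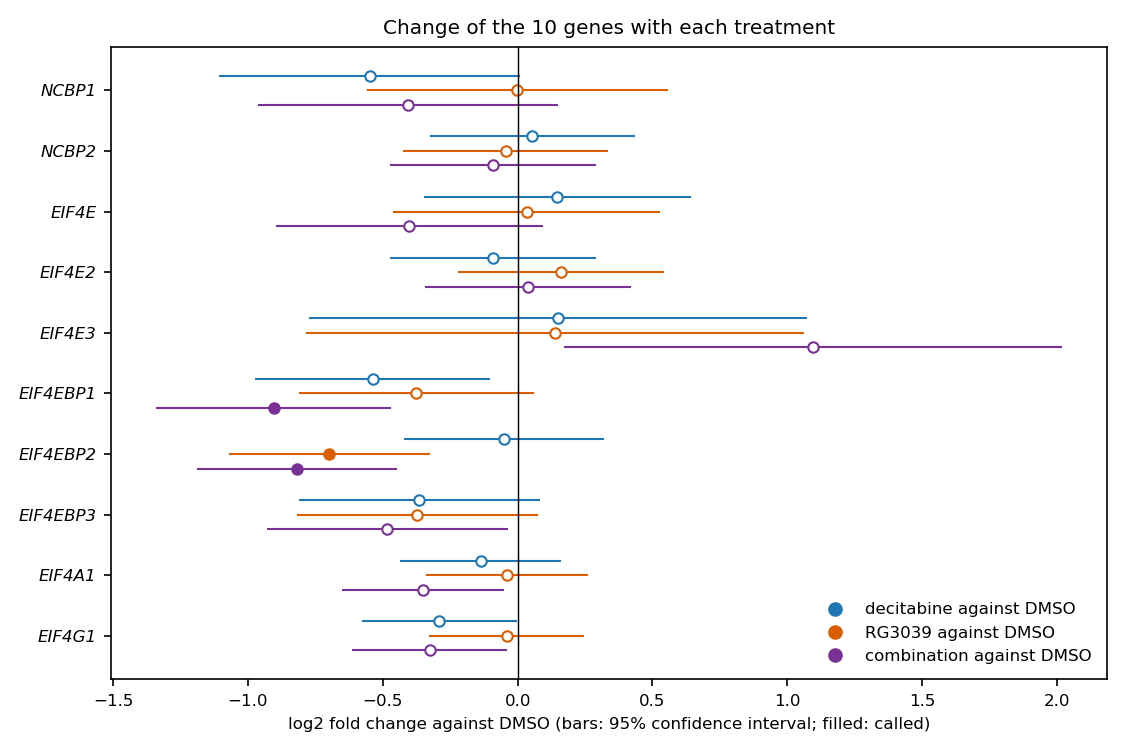
Log2 fold change against DMSO (x axis) of the 10 genes (y axis) for decitabine, RG3039 and the combination, with 95% intervals from limma and filled points for genes called at an adjusted p below 0.05. The filled points are EIF4EBP2 with RG3039 and EIF4EBP1 and EIF4EBP2 with the combination, and the wide interval of EIF4E3 reaches from 0.17 to 2.02.

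Counted together, the shares of the 10 genes that were called lay near those of all tested genes. With the combination against DMSO 2 of the 10 were called, both lower, where 24.1% of all tested genes were called, 11.4% higher and 12.7% lower. With RG3039 1 of the 10 was called, lower, where 8.12% of all were called, 4.53% higher and 3.59% lower. With decitabine none of the 10 was called, where 2.14% of all were, 1.74% higher and 0.405% lower. Between treatments, 1 of the 10 was called lower for the combination against decitabine (7.33% of all tested genes called, 3.39% lower), none for the combination against RG3039 (2.28%) and none for RG3039 against decitabine (4.60%). The 3 comparisons with DMSO share the same DMSO libraries.

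The number of all genes called, behind these percentages, depended on single libraries. With the combination against DMSO it was 4221, and it was 2154 without combination replicate 1 and 2433 without 2. With RG3039 it was 1424, and it was 662 without DMSO replicate 2, 554 without RG3039 replicate 1 and 505 without 2. With decitabine it was 376, and it was 154 without DMSO replicate 2, 86 and 79 without decitabine replicate 1 or 2, and 174 and 163 without combination replicate 1 or 2. For the combination against decitabine it was 1286, then 403 and 577 without decitabine replicate 1 or 2 and 319 and 326 without combination replicate 1 or 2. Between the combination and RG3039 it was 399, then 253 and 212 without decitabine replicate 1 or 2, 59 and 177 without RG3039 replicate 1 or 2, and 22 and 35 without combination replicate 1 or 2. For RG3039 against decitabine it was 806, then 317 and 283 without decitabine replicate 1 or 2 and 323 and 302 without RG3039 replicate 1 or 2. The full-data percentages above are therefore not the background of a count taken without 1 library.

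By position of the libraries alone, 5 of the 10 genes lay wholly below DMSO with the combination and 1 wholly above, where 30.6% and 32.2% of all tested genes did so. With decitabine 4 of the 10 lay wholly below DMSO (23.1% of all tested genes) and 0 above (23.7%). With RG3039 the 3 4E-BP genes lay wholly below (26.1%) and 0 of the 10 above (25.8%). Against decitabine, the combination had 4 genes wholly below (27.3%) and 1 above (25.7%), and RG3039 had 1 below (24.5%) and 5 above (23.8%). Against RG3039, the combination had 4 below (25.0%) and 1 above (26.2%). Against DMSO the median log2 fold change of the 10 was -0.38 with the combination, -0.11 with decitabine and -0.04 with RG3039. Over all tested genes these medians were 0.04, 0.01 and -0.0025. With the filter at a mean of at least 50 the median of all genes was -0.03 with the combination. The counts by position and the medians include the genes that were not called.

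The test of whether the combination departed from the sum of the single drugs found no gene called among the 17534 tested (0%), although 1014 had an unadjusted p below 0.05 in the same limma fit and leaving out 1 library gave 0 to 2 calls. For EIF4EBP1 the interaction was 0.01 ± 0.27 on the log2 scale (limma adjusted p = 0.997, 95% interval -0.61 to 0.62). For EIF4EBP2 it was -0.07 ± 0.23 (adjusted p = 0.979, 95% interval -0.60 to 0.46). The largest among the members was that of EIF4E3, at 0.81 ± 0.58 (adjusted p = 0.884), followed by EIF4E at -0.58 ± 0.31 (adjusted p = 0.880, 95% interval -1.28 to 0.12). The interval of EIF4EBP1 includes departures as large as its single-drug differences, and that of EIF4EBP2 does not reach its RG3039 difference of -0.70.

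Around the 10 genes, 8 lists of related factors with 120 genes (118 tested) were examined. With the combination against DMSO 35 of the 118 were called lower and 4 higher, with a median log2 fold change of -0.21. Without combination replicate 1 or DMSO replicate 2 the count lower was 23, without combination replicate 2 it was 21, and without combination replicate 1 or 2 the count higher was 2. With decitabine 2 were called lower (DENR and EIF3L) and 1 higher (DDIT4L), but leaving out any 1 library left 0 or 1 in each direction. With RG3039 4 were called lower (DEPTOR, EIF3L, GEMIN5 and SRRT) and 2 higher (MKNK2 and SESN2), and the count lower was 2 without DMSO replicate 2, either RG3039 replicate or either combination replicate. The count higher was 0 without RG3039 replicate 1 or 2 and 1 without any other single library. For the combination against decitabine 7 were called lower (EIF2B1, EIF2D, EIF5A, DEPTOR, SESN3, CTIF and PABPC4) and 3 higher (MKNK2, SESN2 and RRAGD). Those counts were 0 and 0 without decitabine replicate 1, 2 and 0 without 2, 1 and 0 without combination replicate 1 and 1 and 1 without 2, and 2 were higher without RG3039 replicate 1 or 2. Between the combination and RG3039 1 was lower in the combination (EIF2B1) and 1 higher (DDIT4L), with 0 higher without either RG3039 or either combination library. There 0 were lower without RG3039 replicate 1 or either combination library, and 2 without either DMSO library. For RG3039 against decitabine 2 were lower (DDIT4L and SESN3) and 1 higher (MKNK2), with 1 lower without either decitabine or either RG3039 library and 2 higher without either DMSO library. The lists are described by their counts and medians, beside the shares of all tested genes given above for the full data. With the combination against DMSO these shares were 12.7% lower and 11.4% higher, and they apply to every list below. With the filter at a mean of at least 50, 2285 of 12772 genes were called lower and 1730 higher. In the 8 lists 34 were then lower and 4 higher. The part of expression level in the list counts was not tested.

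Among the other eIF4F components and cofactors the median was -0.44 with the combination. Of these, 4 of 10 were called lower (12.7% of all tested genes) and none higher (11.4%). These were PABPC4, a poly(A)-binding protein, EIF4H, a cofactor of the helicase, EIF4G2, a scaffold without the eIF4E site, and PAIP1. PABPC4 had 9481 and 8813 under DMSO and 4653 and 4812 under the combination, a log2 fold change of -0.95 ± 0.13 (limma adjusted p = 0.00105). EIF4H had 2724 and 2809 under DMSO and 1246 and 1342 under the combination (-1.10 ± 0.18, adjusted p = 0.00269). The count of this list fell to 2 without combination replicate 1 or 2.

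Of 14 other regulators and partners of eIF4E, 2 were called lower and 1 higher with the combination (median -0.11). GEMIN5, which binds the cap and small nuclear RNA, fell by 1.19 ± 0.17 on the log2 scale (limma adjusted p = 0.00118). ZNF598, a ubiquitin ligase of collided ribosomes that works with 4EHP, fell by 1.12 ± 0.20 (adjusted p = 0.00371). MKNK2, a kinase that phosphorylates eIF4E, had 2174 and 2146 under DMSO, 1922 and 1852 under decitabine, 3599 and 3621 under RG3039 and 2940 and 2961 under the combination. The 4 libraries with RG3039 lay above the 4 without it. MKNK2 was higher with RG3039 than with decitabine by 0.94 ± 0.13 (adjusted p = 0.00443), which held without each library. Against DMSO it was higher with RG3039 by 0.74 ± 0.13 (adjusted p = 0.00885), and that call was lost without RG3039 replicate 1 (adjusted p = 0.0626) or 2 (0.0662) and with eBayes without the trend (0.0622). With the combination it was higher by 0.45 ± 0.13 (adjusted p = 0.0327). That call was lost without DMSO replicate 1 (adjusted p = 0.0712) or 2 (0.0904), RG3039 replicate 1 (0.0557) or 2 (0.0566) and combination replicate 1 (0.143) or 2 (0.138). It was also lost with no filter (0.0509), with eBayes without the trend (0.102) and with only the groups compared (0.0659).

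In the nuclear cap-binding partners 2 of 10 were called lower with the combination, ZC3H14 and CTIF, and neither was called without DMSO replicate 2 or without combination replicate 2 (median -0.08). The list of cap synthesis and methylation also holds DXO and NUDT16, which are decapping enzymes. In this list (median -0.16) 3 of 9 were called lower, DXO, RNMT and TGS1, beside 12.7% of all tested genes. That count fell to 1 without DMSO replicate 1 and to 0 without combination replicate 2.

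The lists of initiation and related factors outside eIF4F held most of the remaining calls. Of 18 eIF1, eIF2, eIF5 and eIF2B factors (median -0.37), 7 were called lower and none higher with the combination. Over all tested genes 12.7% were called lower and 11.4% higher. EIF2B1, a subunit of the exchange factor for eIF2, had 1075 and 1189 under DMSO and 416 and 443 under the combination (-1.39 ± 0.18, limma adjusted p = 0.000660). EIF5B, which joins the ribosomal subunits, fell by 0.97 ± 0.13 (adjusted p = 0.000999), and EIF1AX, a scanning factor, by 0.95 ± 0.15 (adjusted p = 0.00199). Of 13 eIF3 subunits, which form the bridge from eIF4G to the ribosome, 7 were called lower and none higher (median -0.60), beside the same shares. EIF3M fell by 1.54 ± 0.25 (adjusted p = 0.00217), EIF3J by 0.76 ± 0.13 (adjusted p = 0.00323) and EIF3B by 0.70 ± 0.12 (adjusted p = 0.00367). EIF3L was the 1 eIF3 gene called with RG3039, with 16470 and 14637 in DMSO and 8177 and 9033 in RG3039 (-0.85, limma adjusted p = 0.00575). That call was lost without RG3039 replicate 1 (log2 fold change -0.78) and with eBayes without the trend (limma adjusted p = 0.0633).

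Of 13 elongation and termination factors 6 were called lower and 1, GSPT2, higher with the combination (median -0.40), and 3 were called lower without combination replicate 1. The fall of EIF5A, a factor that helps ribosomes through proline-rich stretches, was from 3987 and 2559 under DMSO to 1120 and 738 under the combination (-1.81 ± 0.32, limma adjusted p = 0.00370).

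**Figure D4:**
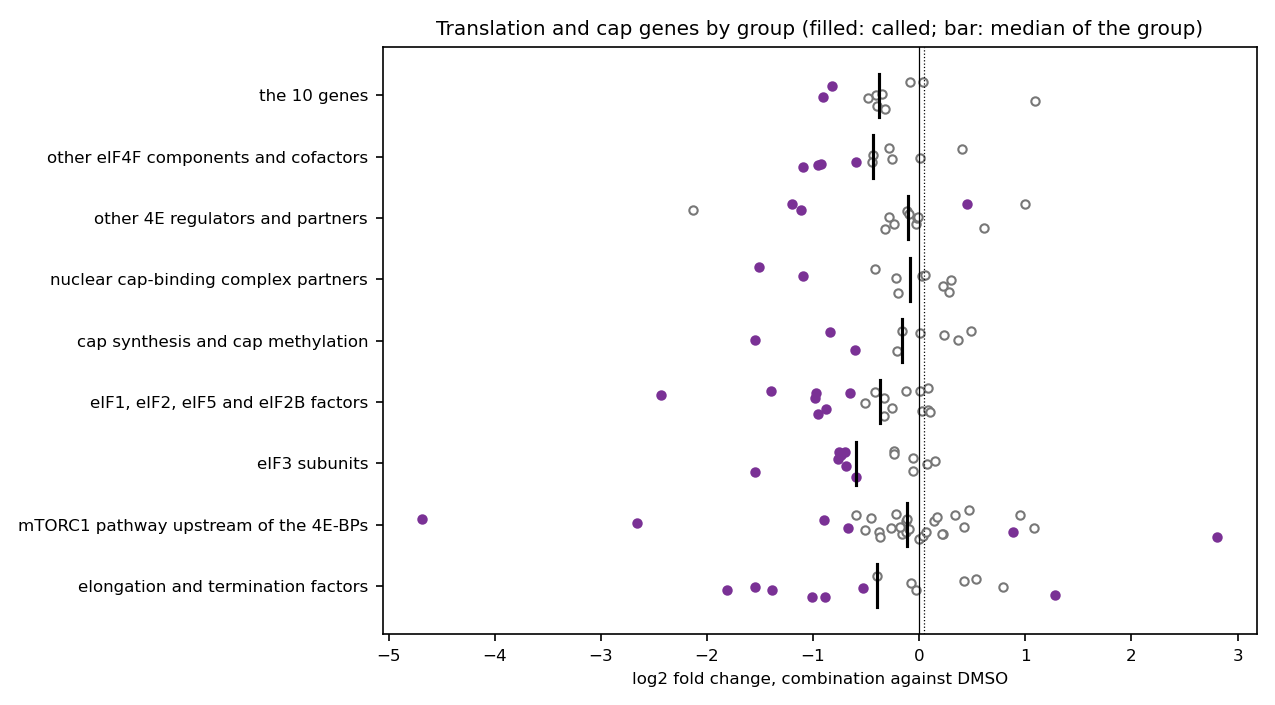
Log2 fold change of the combination against DMSO (x axis) for every tested gene of the 10 and of the 8 related lists (y axis), with filled points for called genes, thick bars for the median of each list and a dotted line at the median of all tested genes, 0.04. The eIF3 subunits have the lowest median, -0.60, and the filled points lie left of 0 except for 4 genes.

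The mTORC1 pathway lies upstream of the 4E-BPs. Of 31 mTORC1 pathway genes 4 were called lower with the combination (DEPTOR, RRAGB, NPRL3 and MTOR) and 2 higher (CASTOR1 and SESN2), with a median of -0.11. DEPTOR, an inhibitor subunit of the mTOR complexes, had values of 150 and 78.5 under DMSO, 45.8 and 45.7 under decitabine, 6.72 and 8.75 under RG3039 and 2.50 and 4.21 under the combination. In the combination libraries a read was worth 0.832 and 0.702. DEPTOR thus lay near the floor there, and the 1 added to each value affects the size of its change. Its fall with the combination was -4.68 ± 0.62 (limma adjusted p = 0.000837) and was called without each of the 8 libraries in turn. DDIT4L, a relative of the mTORC1 inhibitor REDD1, had 51.2 and 48.1 under DMSO, 271 and 178 under decitabine, 24.1 and 15.8 under RG3039 and 89.5 and 126 under the combination. It was lower with RG3039 than with decitabine by a log2 difference of -3.42 ± 0.41 (adjusted p = 0.00226), which held without each library. SESN2, a leucine sensor that restrains mTORC1, had 318 and 315 under DMSO and 618 and 555 under the combination (0.88 ± 0.19, adjusted p = 0.00858), and its call was lost without combination replicate 1 (adjusted p = 0.0724). CASTOR1, an arginine sensor, rose from 8.35 and 9.09 to 60.1 and 74.7, a call that was lost without combination replicate 2 (adjusted p = 0.0609). The count called lower depended on single libraries: 2 without DMSO replicate 1 or combination replicate 2, and 1 without DMSO replicate 2 or combination replicate 1.

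Finally, the genes whose log2 values ran most nearly parallel to the called members were ranked by Pearson's r over the 8 libraries among 10929 genes with a mean of at least 100. For EIF4EBP1 they were MTIF2 (r = 0.992), UTP4 (0.986) and SET (0.984). For EIF4EBP2 they were P4HA1 (r = 0.993), ARRDC1 (0.983) and OSTC (0.983). P4HA1 had values of 1732 and 1787 under DMSO, 1737 and 1581 under decitabine, 912 and 578 under RG3039 and 712 and 636 under the combination, so it too separated by RG3039. MTIF2, a mitochondrial initiation factor, had 4185 and 5085 under DMSO and 2755 and 2842 under the combination. These coefficients describe 8 libraries that form 4 groups and carry no test.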

How the data were processed

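RNA was measured in 8 libraries of polyadenylated RNA made with a QuantSeq 3′ kit and sequenced on an Illumina HiSeq as single reads of 50 bp, per the labels' protocols. The authors deposited 1 signal value per gene and library, a normalised read count. The submitters' processing notes name Salmon 1.2.1, STAR, featureCounts, DESeq2, limma and hg38 and give no roles. Low values were whole multiples of 1 read (tolerance 0.02) for 97.5% to 98.1% of values in genes with 1 transcript and 74.4% to 80.8% over all genes, so no count test was run. Depth was estimated as the total divided by the value of 1 read (0.702 to 1.51).

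Identifiers were matched without version to GENCODE 29, which gave positions for 58064 of 60240 genes. Genes with a mean of at least 10 were tested on log2(value + 1) with limma 3.58.1 in R 4.3.3 (lmFit with a mean per group, eBayes with the mean-variance trend). All 4 groups shared 1 spread, with 4 residual and 5.51 prior degrees of freedom. The 7 contrasts were the 6 pairs of groups and the interaction, (combination - decitabine) - (RG3039 - DMSO). All tests are two-sided, with p adjusted by Benjamini-Hochberg over all tested genes within a contrast. The fit was tested on simulated data.

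The members and the lists of related genes were chosen with earlier results of these data known. From each list, up to 3 called genes with the smallest p in each pairwise contrast were to be named. PAIP1, RRAGB, NPRL3, MTOR, RRAGD and GSPT2, named to complete small counts, and the markers named were chosen after their values were seen. Motif sequences came from GENCODE 29 transcripts and the promoter from RefSeq (GRCh38.p14). Promoter entries of 8 of the 10 genes were used: EIF4EBP1, on chromosome 8, was left out and NCBP1 had no matching entry. Alternatives were other pseudocounts, filters, scalings (TMM, quantile) and eBayes settings, a replicate block, a fit of only the groups compared, and leaving out each library. Python 3.11.15, pandas 2.3.3, numpy 2.4.6 and matplotlib 3.10.9 were used.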

Additional observations from a re-analysis of the deposited data

How the results depend on the processing

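With 2 libraries a group the median standard error was 0.322 on the log2 scale (0.456 for the interaction), and a difference of 1.09 (EIF4E3) was not called. The number of the 10 genes called with RG3039 against DMSO was 1, and it was 0 when eBayes ran without the trend, when low values stayed in or when only the groups compared were fitted, and 0 to 1 when 1 library was left out. With the combination against DMSO it was 2, and 1 to 2 when 1 library was left out. For the combination against decitabine it was 1, then 0 without the trend, and 0 to 1 when 1 library was left out. For RG3039 against decitabine it was 0, then 1 (EIF4EBP2, adjusted p = 0.0320) with quantile normalization. The cause was not tested.

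Signs changed for small differences only. With quantile normalization NCBP2 for the combination against DMSO became 0.0466, EIF4EBP2 for decitabine 0.0817, EIF4A1 for decitabine 0.0096 and the EIF4EBP1 interaction -0.023, which was -0.0025 with TMM scaling. Leaving out 1 library gave -0.20 to 0.0183 for NCBP2 and -0.10 to 0.18 for EIF4E2 (combination against DMSO), -0.12 to 0.0183 for EIF4EBP2 with decitabine and -0.33 to 0.0883 for EIF4EBP2 between the combination and RG3039. It gave -0.22 to 0.23 for the EIF4EBP1 interaction and -0.28 to 0.14 for that of EIF4EBP2. Of the 70 fold changes of the 10 genes, 31 below 1 standard error were not printed or followed; 24 of these changed sign in some setting and 0 were called in any.

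The replicate numbers pair no samples by the labels, and deviations of same-numbered libraries correlated by -0.0767 to 0.161. With the replicate block, 2 of the 10 genes were called for the combination against DMSO, 1 for RG3039 against DMSO, 1 for the combination against decitabine and 0 in each other contrast, the same counts as without it. Over all genes the block gave 525 calls with decitabine against 376 and 688 for the combination against RG3039 against 399. Of these calls 69.3% against 81.1% and 52.2% against 65.4% were higher.

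Over all genes, the counts without the trend were 210 with decitabine (376), 718 with RG3039 (1424), 432 for the combination against decitabine (1286), 147 for the combination against RG3039 (399) and 427 for RG3039 against decitabine (806). With only the groups compared they were 138 with decitabine and 807 with RG3039, and with no filter 225 with decitabine and 213 for the combination against RG3039. The share higher was 93.8%, 89.8% and 91.3% for decitabine without the trend, with no filter and with only the groups compared, against 81.1%, and 94.6% and 75.6% for the combination against RG3039 without the trend and with no filter, against 65.4%. For the combination against decitabine without the trend it was 64.1% against 53.7%. Over the 8 related lists the calls lower and higher with the combination were 35 and 4; they were 20 and 4 without the trend, 33 and 9 with quantile normalization and 36 and 7 with the replicate block. With RG3039 they were 4 and 2, then 7 and 4 with the block, 2 and 1 with no filter or only the groups compared, and 1 and 0 without the trend. With decitabine they were 2 and 1, then 5 and 1 with the block and 0 and 0 with no filter, quantile normalization, no trend or only the groups compared. For the combination against decitabine they were 7 and 3, then 14 and 4 with the block, 14 and 3 with quantile normalization and 1 and 1 without the trend. For the combination against RG3039 they were 1 and 1, then 12 and 1 with the block and 4 and 2 with robust estimates. Across alternatives the lowest list counts were 4 of 7 for eIF3, 2 of 4 for the eIF4F cofactors, 0 of 3 for cap synthesis and 1 of 4 for mTORC1.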
